A study of Mus musculus with 27 samples.

Results

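The genes described here are 10 genes that pattern the somites of the mouse embryo, chosen by name from their known roles: the oscillator genes Hes7 and Lfng, the Notch ligand genes Dll1 and Dll3, the presomitic and boundary genes Msgn1, Mesp1, Mesp2 and Ripply2, and the somite genes Tcf15 and Uncx. They are 10 of the 24065 genes in the deposited count table, and all 10 were among the 15114 genes that could be tested. Transcripts were measured by RNA-Seq in whole embryos at E8.5 (embryonic day 8.5), with 1 library for each of 3 wild type (WT) and 3 Dnmt3b-/- littermates on the C57BL/6J background. DNMT3B is one of the enzymes that place new methyl groups on cytosine after implantation, and the comparison asks how transcript levels differ between embryos with and without its catalytic activity. The mutant allele lacks the catalytic exons of Dnmt3b and was made by crossing mice with loxP sites around these exons to mice that express Cre from the ACTB promoter, so that the deletion was carried by every cell of the mutants and not only by the mesoderm. The embryos came from crosses of heterozygous parents, and neither the sex nor the number of somites of an embryo is given in the sources used here.

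Somites are blocks of mesoderm that bud off in pairs from the presomitic mesoderm, the unsegmented tissue between the tailbud and the last somite formed. A molecular oscillator, the segmentation clock, runs in the presomitic cells: the repressor HES7 shuts off its own gene and that of the glycosyltransferase Lunatic fringe (LFNG), which modifies the Notch receptor, and Notch signalling driven by the ligand DLL1 keeps neighbouring cells in step. Each cycle ends with MESP2 at the next boundary, which induces its own antagonist RIPPLY2, and the new somite then acquires an epithelial wall and a front and a rear compartment. Each library averaged all cells of an embryo, so that the phase of the clock could not be read from it.

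The targeted gene Dnmt3b was read first. Its count sums the deleted exons and the exons that remain, so that it cannot show the loss of the deleted exons by itself. The normalized count of Dnmt3b (the raw count scaled to the mean depth of the 6 libraries) was 7263, 13956 and 6280 in WT embryos 1, 2 and 3 and 4063, 4541 and 4740 in the mutants, a log2 fold change of -1.04 with a standard error of 0.27 (adjusted p = 0.0169 by the quasi-likelihood test of edgeR with Benjamini-Hochberg adjustment over all genes tested, which applies to every adjusted p given here). The raw counts on genes summed to between 41489332 and 58470286 for a library, so that 3 counts, the upper limit that a count of 0 allows, corresponded to 2.37 to 3.49 normalized counts. This limit and all counting errors leave out amplification, since the reads carry no molecular identifiers and copies of 1 molecule cannot be told from each other. WT embryo 2 had the lowest summed level of posterior Hox genes and the highest of yolk sac endoderm genes of the 6 embryos. WT embryo 2 also had the highest count of Dnmt3b, so that the fold change of Dnmt3b leaned on this embryo. The values without WT embryo 2 are given where they change a result, except for Dnmt3b, most genes near it and the marker lists of other tissues.

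Of the 10 genes, Tcf15 alone was higher in Dnmt3b-/- embryos and Dll1 alone was lower at an adjusted p below 0.05. Tcf15, whose product is needed for the epithelial wall of the somite, was at 339 ± 51 normalized counts in WT and 747 ± 228 in mutant embryos (SD, n = 3 in each group), a fold of 2.20 with a 95% interval of 1.53 to 3.16. Dll1 was at 0.762 times the WT level, with an interval of 0.636 to 0.912. Over all genes tested, 17.6% were higher and 18.1% were lower at the same threshold, so that 1 gene of 10 in each direction was no larger a share than in the whole table. With a fold change above 2 required as well, 2.12% of all genes tested were called higher, and Tcf15 was the 1 gene of the 10 among them, whereas 3.78% were called lower and none of the 10 was. At an unadjusted p below 0.05, 23.8% of all genes tested were lower, and Dll1 was the 1 gene of the 10. DESeq2 and limma likewise called none of the 10 lower. In whole embryos a lower level can mean fewer cells of a type or less RNA for each cell, and these cannot be told apart.

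**Figure D1:**
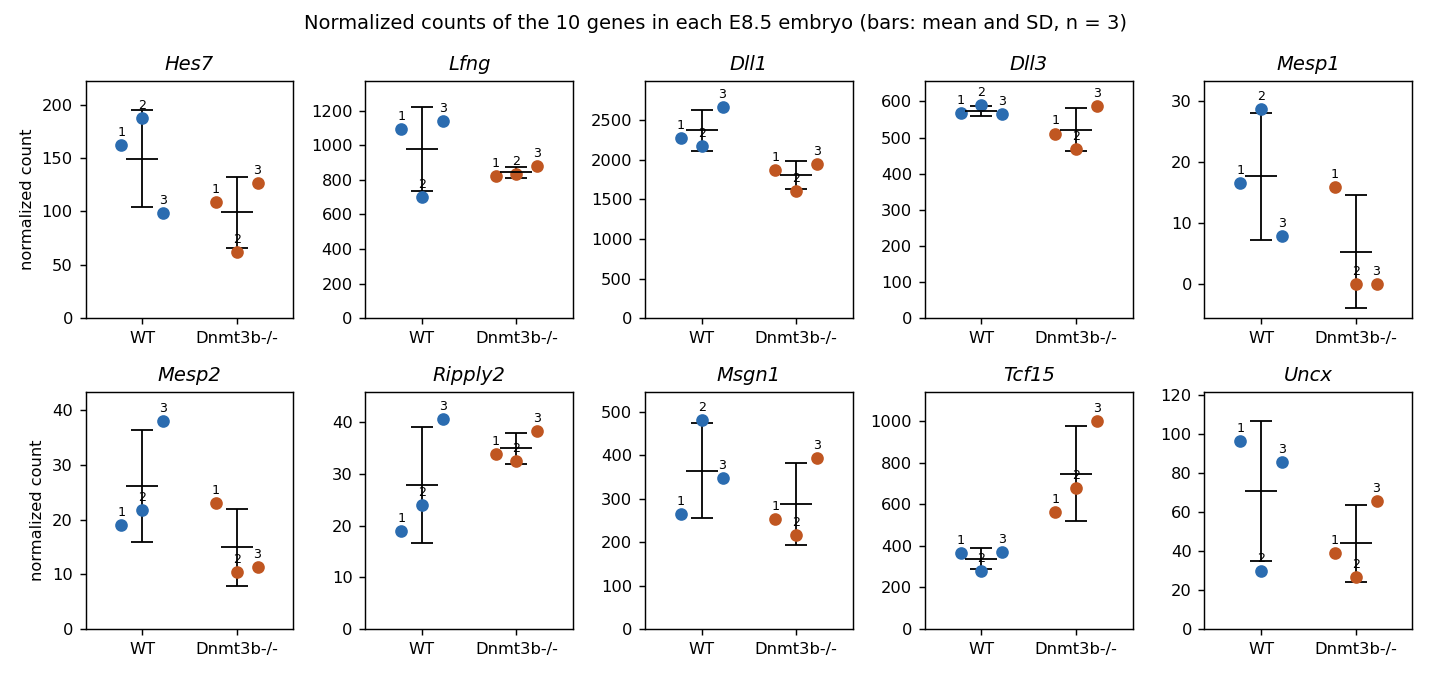
Normalized counts of the 10 genes in each of the 6 E8.5 embryos (vertical axis, raw count scaled by TMM to the mean library size), with the embryo number above each point and the mean and SD of 3 embryos as bars. Only in the panels of Dll1 and Tcf15 do the WT points (blue) and the Dnmt3b-/- points (orange) not overlap, with Tcf15 between 280 and 372 in WT and between 563 and 1002 in mutant embryos.

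By level, the 10 genes fell into 2 tiers in the WT embryos. On a scale that corrects for transcript length (FPKM, fragments divided by exon length and library size), Msgn1 and Dll1 stood highest, both at a mean of 13.4, followed by Lfng at 8.92, Tcf15 at 7.57, Dll3 at 5.54 and Hes7 at 3.23. The other 4 genes were below 1 FPKM, namely Uncx at 0.702, Ripply2 at 0.459, Mesp1 at 0.343 and Mesp2 at 0.282. The 3 WT values of neighbours in this order overlapped for Msgn1 and Dll1, for Lfng and Tcf15, and among Uncx, Ripply2, Mesp1 and Mesp2, whereas those of Dll1 and Lfng, of Tcf15 and Dll3, of Dll3 and Hes7, and of Hes7 and Uncx did not. In the mutants Tcf15 had the highest mean of the 10 genes, at 16.7 ± 5.1 FPKM, with a range that overlapped that of Msgn1, ahead of Msgn1 at 10.6 ± 3.4 and Dll1 at 10.2 ± 1.0 (SD, n = 3). The low tier holds genes that are active in a narrow band of cells at the forming boundary or in the rear part of each somite.

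Hes7, the core repressor of the clock, lies on chromosome 11 (chr11:69118906-69124054 of mm10, plus strand). Its normalized count was 162, 188 and 98.8 in WT embryos 1, 2 and 3 and 109, 61.7 and 127 in Dnmt3b-/- embryos 1, 2 and 3. WT embryo 2 was highest and mutant embryo 2 lowest, and the groups overlapped because WT embryo 3 lay below mutants 1 and 3. The log2 fold change was -0.59 with a standard error of 0.35 (adjusted p = 0.225), and the 95% interval of the fold, 0.381 to 1.16, covers both a loss of more than 50% and no change.

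Lfng, the clock-controlled glycosyltransferase (chr5:140607341-140615545, plus strand), was at 1093, 699 and 1140.4 normalized counts in the WT embryos and at 821, 831 and 878 in the mutants. The mutants lay close together, and WT embryo 2 lay below all of them while the other WT embryos lay above. Between the genotypes it differed by a log2 fold change of -0.21 with a standard error of 0.18 (adjusted p = 0.387). Without WT embryo 2 it was -0.41 with an adjusted p of 0.0216, so that the outcome for Lfng depended on this embryo.

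The proximal promoters of these genes are shown for the sites through which the clock is wired, namely the GTGGGAA element bound by RBPJ, the DNA-binding partner of the Notch receptor, the CACGTG E-box and the TCACACC site of T-box factors such as TBX6. Each motif was searched on both strands from 250 bases before to 50 bases after the start site in the RefSeq promoters of GRCm38.p6. Tcf15 had no entry there and was not searched. The other 9 of the 10 genes were found, Dll1 with 2 windows. GTGGGAA was present in 3 of these 10 windows, those of Hes7, Lfng and Msgn1, against 6.38% of all 32851 windows. CACGTG was present in 1 of the 10, that of Lfng, where it overlaps GTGGGAA by 3 bases, against 7.15% of all windows. TCACACC was present in 2, those of Ripply2 and Mesp1, against 3.98%. The stretches of 100 bases below hold the matches that lie before the start, in capitals and read 5′ to 3′ on the strand of the gene, so that TTCCCAC is GTGGGAA on the other strand.
Lfng, chr5:140607182-140607281, plus strand: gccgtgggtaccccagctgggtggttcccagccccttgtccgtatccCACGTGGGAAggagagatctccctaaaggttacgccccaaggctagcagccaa
Hes7, chr11:69120226-69120325, plus strand: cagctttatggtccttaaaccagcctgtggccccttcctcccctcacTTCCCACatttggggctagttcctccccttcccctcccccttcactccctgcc
Msgn1, chr12:11209010-11209109, minus strand: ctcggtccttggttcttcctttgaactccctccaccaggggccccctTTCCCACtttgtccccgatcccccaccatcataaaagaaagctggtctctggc
Ripply2, chr9:87015363-87015462, plus strand: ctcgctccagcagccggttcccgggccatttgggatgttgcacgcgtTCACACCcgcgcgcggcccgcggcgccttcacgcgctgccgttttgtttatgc
The first base of the match lay 109 bases before the start for GTGGGAA in Lfng, 180 in Hes7 and 114 in Msgn1, and 127 bases before it for TCACACC in Ripply2. Hes7 also has a predicted transcript that starts further upstream, and the stretch printed for Hes7 lies in an intron of it. These matches are letters in a window and do not show that a factor was bound. None of the 4 genes printed passed the test between genotypes.

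The same windows differed widely in CpG dinucleotides, the sequence that DNMT3B methylates. The 10 windows had a median of 14.5 CpGs against 7 over all promoters, from 4 in Mesp1 and in Msgn1 to 32 in Ripply2. No window of Tcf15 was among them. Hes7 had 14 and Lfng 22, and both windows of Dll1 were rich in CpGs, with 24 and 15. The promoter methylation of these embryos was not analysed here.

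Dll1 encodes the ligand that activates Notch in the presomitic mesoderm (chr17:15367354-15376932, minus strand). Its normalized count was 2277, 2178 and 2669.8 in WT embryos and 1871, 1606 and 1949.7 in Dnmt3b-/- embryos. All mutants were below all WT embryos, the narrowest gap being that between WT embryo 2 and mutant embryo 3. The log2 fold change was -0.39 with a standard error of 0.11 (adjusted p = 0.0277), and 26.5% of all genes tested had every mutant below every WT embryo. The adjusted p was 0.0571 without WT embryo 1, 0.0914 without WT embryo 3 and 0.104 without mutant embryo 2, and the log2 fold change shrank to -0.16 (adjusted p = 0.326) once the trend with GC content and length was removed from each library. Dll1 is also expressed outside the mesoderm, in the neural tube among other places, so that its level is not a measure of the presomitic cells alone.

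Dll3, the divergent ligand that dampens Notch signalling from inside the cell (chr7:28293555-28301785, minus strand), was the steadiest gene of the 10 in WT embryos. Its normalized count was 569, 590.5 and 564 in WT and 511, 469 and 586 in mutant embryos. Mutant embryo 3 lay within the WT range and the other mutants below it. Dll3 had a log2 fold change of -0.14 with a standard error of 0.13 (adjusted p = 0.444), and the 95% interval of the fold, 0.738 to 1.12, leaves out a change of 2-fold in either direction. The ratio of Dll1 to Dll3, taken within each embryo on the FPKM scale after the values were seen, was 2.16 to 2.77 in WT and 1.95 to 2.14 in mutant embryos.

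Msgn1 encodes Mesogenin 1, a factor that sets the presomitic fate, and is a gene with 1 exon on chromosome 12 (chr12:11208382-11208948, minus strand). Its normalized count was 265, 483 and 348 in WT embryos and 253, 218 and 394 in mutants. WT embryo 2 was highest, mutant embryo 3 exceeded the other WT embryos, and the groups overlapped. Its log2 fold change was -0.34 with a standard error of 0.29 (adjusted p = 0.395), and without WT embryo 2 it was -0.09 (adjusted p = 0.836).

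Mesp1 and Mesp2 are neighbouring paralogs on chromosome 7 (chr7:79792241-79793590, minus strand, and chr7:79810727-79813431, plus strand) that encode basic helix-loop-helix factors of early mesoderm and of the somite boundary. How reads that match both genes were counted is not stated in the sources used here, and their values are uncertain to that extent. Mesp1 had 21, 25 and 9 raw counts in WT embryos and 16, 0 and 0 in Dnmt3b-/- embryos. Mutants 2 and 3 were thus under the limit of 3 counts, which averaged 3.44 normalized counts in these libraries. That limit lay 5.15-fold below the WT mean of 17.7, which had an SD of 10.4. Mutant 1 at 16.0 lay inside the WT range of 7.94 to 28.6. Mutants 2 and 3 were set apart after their values were seen. In the fit Mesp1 had a log2 fold change of -1.63 with a standard error of 1.18 (adjusted p = 0.316), and the mean of the gene over the 6 libraries only just exceeded the minimum of 10 counts, a mean that rested mainly on the WT embryos. Without mutant embryo 1 the adjusted p was 0.0202, with both remaining mutants at a count of 0.

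Mesp2 was at 18.95, 21.7 and 37.9 normalized counts in WT embryos and at 23.0, 10.47 and 11.3 in mutants. Mutants 2 and 3 were again the lowest, and mutant 1 lay above WT embryos 1 and 2. For Mesp2 the log2 fold change was -0.80 with a standard error of 0.54 (adjusted p = 0.282), and the fold interval of 0.244 to 1.35 shows how little counts of 9 to 43 resolve. Ripply2, the antagonist that MESP2 induces (chr9:87015537-87020441, plus strand), was at 18.95, 24.0 and 40.6 in WT embryos and at 34.0, 32.6 and 38.4 in mutants. All mutants lay between the WT extremes, with a log2 fold change of 0.33 and a standard error of 0.43 (adjusted p = 0.589). The fold intervals leave out a 2-fold gain of Mesp2 and a 2-fold loss of Ripply2 (0.632 to 2.49). They do not leave out a 2-fold loss of Mesp2 or a 2-fold gain of Ripply2. For Mesp1 (0.0493 to 2.11) they leave out neither direction.

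Tcf15, also known as Paraxis, encodes the basic helix-loop-helix factor that turns somite cells epithelial, and it lies on chromosome 2 (chr2:152143056-152149097, plus strand). Its normalized count was 364, 280 and 372 in WT embryos and 563, 677 and 1002 in Dnmt3b-/- embryos. All mutants were above all WT embryos, and mutant embryo 3 was the highest by far. Of all genes tested, 25.3% had every mutant above every WT embryo. Tcf15 had a log2 fold change of 1.14 with a standard error of 0.23 (adjusted p = 0.00601). It ranged from 0.89 without mutant embryo 3, where the change was below 2-fold (adjusted p = 0.0131), to 1.32 without mutant embryo 1, and the adjusted p stayed below 0.05 with any 1 of the 6 embryos left out.

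The other gene of formed somites, Uncx, marks the rear part of each somite (chr5:139543865-139548179, plus strand) and did not pass the test. Its normalized count was 96.3, 29.8 and 85.6 in WT embryos and 38.9, 26.8 and 65.5 in mutants. WT embryo 2 lay among the mutants, and the log2 fold change was -0.70 with a standard error of 0.52 (adjusted p = 0.327). Without WT embryo 2, Uncx was at -1.05 (adjusted p = 0.0891). The ratio of Tcf15 to Uncx on the FPKM scale, chosen after the values were seen, was 8.49 to 21.2 in WT and 32.5 to 56.9 in mutant embryos, and that of Tcf15 to Msgn1 was 0.353 to 0.837 in WT and 1.36 to 1.89 in mutants, without overlap in either case.

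**Figure D2:**
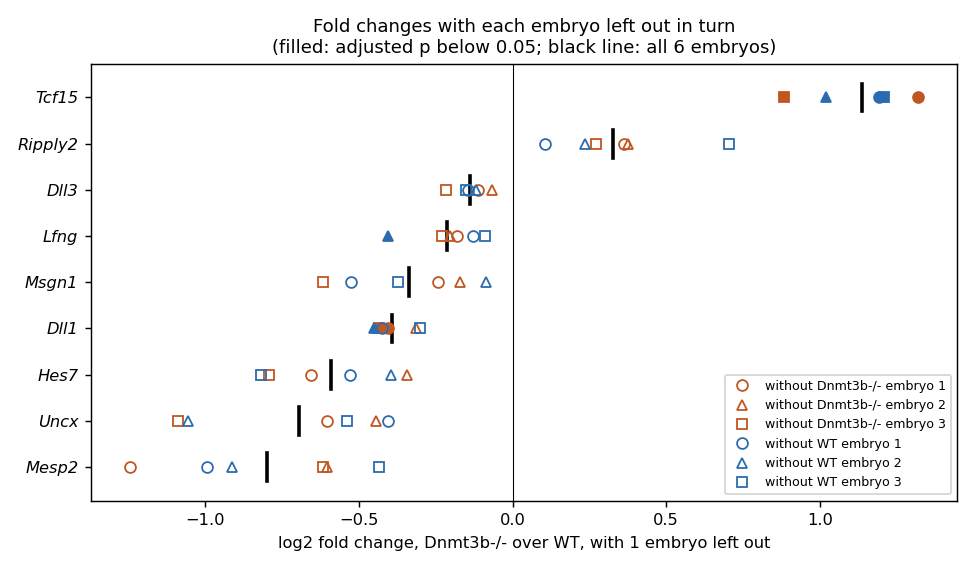
Log2 fold change of Dnmt3b-/- embryos over WT (horizontal axis) with each of the 6 embryos left out in turn, for 9 of the 10 genes, where filled symbols mark an adjusted p below 0.05 and the black line the value with all 6 embryos. Tcf15 is filled in all 6 fits at 0.89 to 1.32, Dll1 in 3 fits and Lfng in 1. Mesp1 is not drawn because its fitted value depends on the added prior count where the mutants are at 0.

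Spread between embryos set these limits more than counting did for the abundant genes. Among the WT embryos the coefficient of variation was 30.6% for Hes7 and 24.8% for Lfng, where counting alone would give 7.90% and 3.02%, and 30.2% for Msgn1, where it would give 5.11%. Dll3 varied by 2.41% in WT embryos, below the counting error of 4.0%. Lfng varied by 3.61% among the mutants, next to a counting error of 3.60%, and Tcf15 by 15.0% among WT and 30.5% among mutant embryos. For the rare genes the counting error was itself large, at 23.4% for Mesp1, 18.7% for Mesp2 and 18.2% for Ripply2 in WT embryos.

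As a group, 8 of the 10 genes had a negative and 2 a positive log2 fold change, with a median of -0.37, where the median over all genes tested was -0.03 and 52.1% of all genes tested were negative. The exons of these genes are rich in G and C, with a median GC content of 61.2% against 50.3% over all genes tested, from 44.0% in Ripply2 to 66.5% in Uncx. After removal of the trend with GC content and length, the median of the 10 was 0.0013, Lfng, Dll3 and Msgn1 turned to 0.17, 0.32 and 0.15, and no gene was lower at an adjusted p below 0.05. Tcf15, with a GC content of 65.0%, moved up as well, to 1.66 (adjusted p = 0.00267), and Ripply2, the gene of lowest GC content, moved down to 0.10. The negative median of the group thus depended on this correction and the difference of Tcf15 did not.

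**Figure D3:**
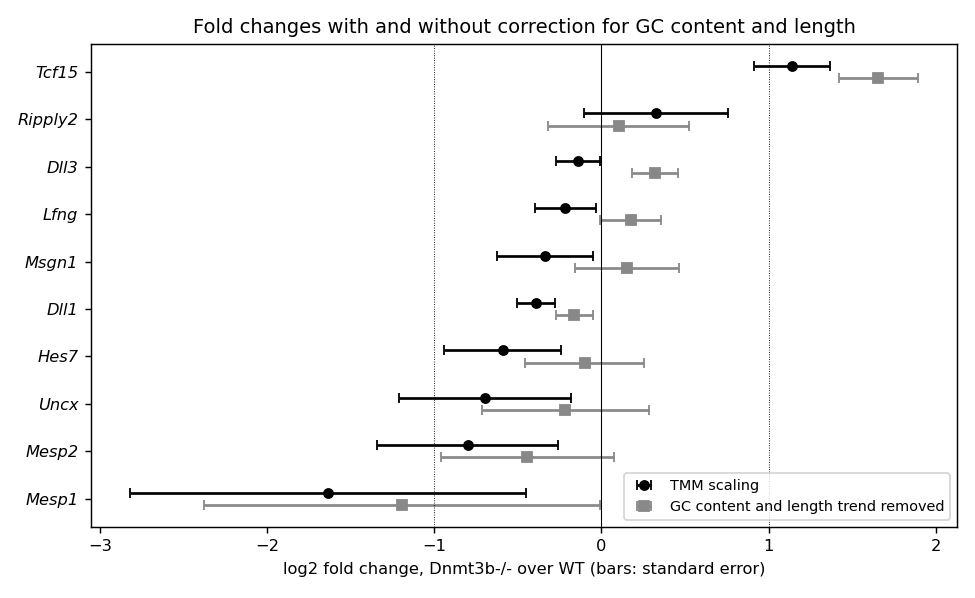
Log2 fold change of Dnmt3b-/- embryos over WT (horizontal axis, bars are standard errors, n = 3 embryos in each group) for the 10 genes, with TMM scaling alone (black circles) and after the trend with exonic GC content and length was removed from each library (grey squares); dotted lines mark a 2-fold change. Tcf15 lies at 1.14 and 1.66, and the 8 genes with negative values move up, Lfng, Dll3 and Msgn1 across 0.

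Somite genes beyond the 10 were examined from a list of 24 genes of the anterior presomitic mesoderm and the somites, of which 23 could be tested and Nkx3-2 could not. The list gave 2 genes higher and 21 that did not pass at an adjusted p below 0.05, with a median log2 fold change of 0.18. The share that was higher, 8.70%, lay below the 17.6% of all genes tested. The 2 genes were Foxc1, a forkhead factor of paraxial and head mesenchyme, at 0.54 with a standard error of 0.11 (adjusted p = 0.00578), and Eya1, a coactivator in the somite and in the sensory placodes, at 0.74 with a standard error of 0.18 (adjusted p = 0.0138). Without mutant embryo 1 the number of higher genes was 4. Without WT embryo 2 it was 3, with Fst added at 0.74 (adjusted p = 0.0183), and Pcdh8 was lower at -0.85 (adjusted p = 0.00970). After the correction for GC content and length 3 genes were higher and 0 lower. Foxc1 and Eya1 were then at 0.72 and 0.59 (adjusted p = 0.00328 and 0.0402), and Twist1 was added at 0.78 (adjusted p = 0.00426). Foxc1 was at 3682, 2741 and 3209 normalized counts in WT embryos and at 4422, 4719 and 4849 in mutants, without overlap. The abundant somite genes Epha4 and Aldh1a2 had values of 0.08 (adjusted p = 0.579) and 0.07 (adjusted p = 0.684). The summed count of the list was 31091 to 33622 in WT and 34838 to 41648 in mutant embryos. Tcf15 amounted to 9.02 to 11.3 per 1000 counts of the somite list in WT and to 16.2 to 24.1 in mutant embryos, a ratio likewise chosen after the values were seen.

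The posterior Hox genes are switched on one after another as the body axis grows. Higher in the mutants were 2 of the 9 listed, or 22.2%, beside 17.6% of all genes tested. The summed normalized count of the list was 8638, 5414 and 7438 in WT embryos 1, 2 and 3. It was 9349, 9998 and 11585 in Dnmt3b-/- embryos, and the groups did not overlap. The other 7 did not pass at an adjusted p below 0.05, and the median log2 fold change was 0.53, or 0.23 without WT embryo 2. The 2 genes were Hoxa9 at 0.83 with a standard error of 0.25 (adjusted p = 0.0303) and Hoxc8 at 0.62 with a standard error of 0.17 (adjusted p = 0.0204), and the most abundant gene of the list, Hoxb9, was at 0.36 (adjusted p = 0.130). Hoxd9, named after its values were seen, was at -0.38 (adjusted p = 0.147), with all mutants below all WT embryos. Hoxa9 and Hoxc8 stayed below the threshold without WT embryo 2, but not after the correction for GC content and length (adjusted p = 0.0513 and 0.0632), which left 0 of the 9 genes passing. The mutants had the same order by Hox sum and by Tcf15, with embryo 3 highest, and WT embryo 2 was lowest in both, while WT embryos 1 and 3 were close in Tcf15 and changed places. Tcf15 per 1000 counts of the posterior Hox list was 42.1 to 51.8 in WT and 60.2 to 86.5 in mutant embryos, a ratio chosen after the values were seen. The part of axial stage in the difference of Tcf15 was not tested.

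The tailbud and posterior presomitic mesoderm are the source of the cells in which the clock runs. Of 14 listed genes, 1 was higher (7.14%) and 3 were lower (21.4%), beside 17.6% and 18.1% of all genes tested. The median log2 fold change of the list was -0.28 and turned to 0.09 without WT embryo 2. Wnt3a, the ligand that keeps the axial progenitors and drives the Wnt side of the clock, was at 518, 783 and 558 normalized counts in WT embryos and at 290, 380 and 232 in mutants. Its highest mutant value was below its lowest WT value, with a log2 fold change of -1.04 and a standard error of 0.23 (adjusted p = 0.00907). Evx1, a homeobox gene of the primitive streak and tailbud, was at -1.26 with a standard error of 0.30 (adjusted p = 0.0123), and Hes3, a Hes repressor best known from neural progenitors, was at -0.99 with a standard error of 0.23 (adjusted p = 0.0105). The gene that was higher was Rspo3, an R-spondin that amplifies Wnt signals, at 0.60 with a standard error of 0.13 (adjusted p = 0.00823). T (Brachyury) and Cdx2, the most abundant genes of the list, were at 0.47 (adjusted p = 0.122) and 0.00 (adjusted p = 0.996). Without WT embryo 2 T passed the test, at 0.73 (adjusted p = 0.0114). After the correction for GC content and length Wnt3a stayed below the threshold (-0.72, adjusted p = 0.0491), whereas Evx1, Hes3 and Rspo3 did not (adjusted p = 0.102, 0.0862 and 0.0510), and Fgf17 became higher at 0.73 (adjusted p = 0.0293). Without mutant embryo 3 the number of genes that were lower was 5, and without WT embryo 2 the number that were higher was 2.

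Genes known to cycle in the presomitic mesoderm other than Hes7 and Lfng mostly did not pass the test. Of 20 such genes from the Notch, Fgf and Wnt branches of the clock, 1 was higher, 1 was lower and 18 did not pass. The median log2 fold change was -0.04. Each direction held 5% of the list, beside 17.6% higher and 18.1% lower over all genes tested. Has2, a hyaluronan synthase, was higher at 0.49 with a standard error of 0.13 (adjusted p = 0.0175), and Dact1, an intracellular Wnt modulator, was lower at -0.51 with a standard error of 0.15 (adjusted p = 0.0269). Neither stayed below the threshold after the correction for GC content and length (adjusted p = 0.406 and 0.0803), while Id1, Myc and Phlda1 became higher and Spry2 lower (adjusted p = 0.0449, 0.0274, 0.0336 and 0.00841). Has2 did not pass without mutant embryo 3, and without WT embryo 1 or WT embryo 3 the list held no gene that was lower, against 2 without WT embryo 2. These 2 were Dact1 and Hes5. Hes5 was then at -1.80 (adjusted p = 0.00212), beside -1.35 in the main fit (adjusted p = 0.0933). The abundant members Dusp6, an Fgf feedback phosphatase, and Tnfrsf19, a Wnt target, were at 0.02 (adjusted p = 0.892) and 0.17 (adjusted p = 0.382).

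More genes of the core Notch pathway passed the test. Of 21 genes other than Dll1, Dll3 and Lfng, 4 were higher and 8 lower at an adjusted p below 0.05, with a median log2 fold change of -0.28, which sets 38.1% of the list lower beside 18.1% of all genes tested. The receptor genes Notch2 and Notch3 were lower at -0.90 with a standard error of 0.19 (adjusted p = 0.00717) and -0.84 with a standard error of 0.11 (adjusted p = 0.00110). Notch3 was at 2487, 2308 and 2582 normalized counts in WT embryos and at 1543, 1339 and 1236 in mutants, well apart. Subunits of the gamma-secretase that releases the active receptor went in opposite directions, Aph1a at -0.81 with a standard error of 0.10 (adjusted p = 0.000976) and Psenen at 0.67 with a standard error of 0.10 (adjusted p = 0.00180).

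Dtx1, an E3 ligase that acts on Notch, had the largest change of the list but low counts, with 69.6 ± 2.2 in WT and 24.0 ± 11.2 in mutants (log2 fold change -1.53, standard error 0.42, adjusted p = 0.0218). It was the 1 gene of the list lower by more than 2-fold. Rbpj was higher at 0.36 with a standard error of 0.09 (adjusted p = 0.0163), and Mib1, the ubiquitin ligase that DLL1 needs to signal, was at -0.10 (adjusted p = 0.356). The remaining genes that passed, named after their values were seen, were Notch1, Pofut1, Ncstn and Numbl, all lower, and Jag1 and Adam10, both higher. The number of genes that were lower was 4 without WT embryo 1 or mutant embryo 2 and 5 without WT embryo 3 or mutant embryo 3, and after the correction for GC content and length it was 5. Over all genes tested the number lower fell as well, from 2741 to 1909 without WT embryo 1 and 1791 without mutant embryo 2. It was 2138 without WT embryo 3, 2028 without mutant embryo 3 and 1879 after the correction. The number in the list that were higher was 2 without WT embryo 1 and 1 without mutant embryo 2. Over all genes tested it was 1861 and 1795, beside 2654 with all 6 embryos. Without WT embryo 2 the list held 9 lower and 3 higher. Notch2, Notch3, Aph1a, Pofut1, Jag1 and Psenen stayed below the threshold after the correction for GC content and length. Of these, Pofut1 lies within 2 Mb of the targeted gene Dnmt3b. Dtx1, Rbpj, Notch1, Numbl, Ncstn and Adam10 did not (adjusted p = 0.106, 0.142, 0.321, 0.542, 0.0739 and 0.975), whereas Mib1 became lower at -0.26 (adjusted p = 0.0267) and Rfng higher at 0.80 (adjusted p = 0.0108). These genes are used in most tissues of the embryo, and whole embryos do not show in which of them the levels differed.

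**Figure D4:**
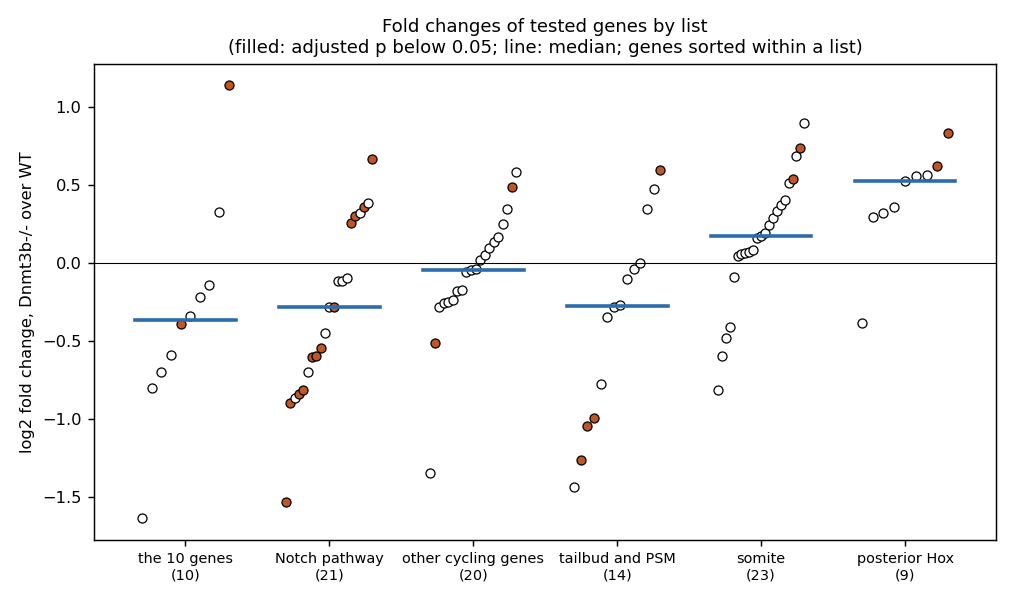
Log2 fold changes of Dnmt3b-/- embryos over WT (vertical axis) for the tested genes of 6 lists, sorted within each list, with filled points at an adjusted p below 0.05, a blue line at the median and the number of tested genes in brackets. The medians are -0.37 for the 10 genes, -0.28 for the Notch pathway, -0.04 for other cycling genes, -0.28 for tailbud and presomitic mesoderm (PSM), 0.18 for somite and 0.53 for posterior Hox genes.

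Markers of other tissues in a whole embryo were summed for each library, since their shares can move every gene above. Of 9 yolk sac endoderm genes 1 was lower (Amn, the cubilin partner, at -2.59, adjusted p = 0.0429) and 8 did not pass. All 9 had negative log2 fold changes, from -2.59 to -0.87 with a median of -1.08. Amn was at 707 ± 737 normalized counts in WT and 116 ± 93 in mutants (SD, n = 3), and the groups overlapped. The summed count of the list was 21606, 58810 and 184540 in WT embryos 3, 1 and 2 against 12026 to 43367 in mutants. None of the 7 tested erythroid genes of 8 passed the edgeR test, and 0 did at an unadjusted p below 0.05, with sums of 12152 to 67698 in WT and 15338 to 43638 in mutants. Neural genes gave 3 higher and 2 lower of 8, led by Six3 at 1.05 (adjusted p = 0.0469) and by Sox3 at -0.75 (adjusted p = 0.0342), with sums of 8815 to 10463 in WT and 9231 to 12411 in mutants. Cardiac genes gave 1 higher (Tnnt2, 0.62, adjusted p = 0.0198) and 2 lower of 7 (Nkx2-5, -0.79, adjusted p = 0.0149, and Myl4, -0.69, adjusted p = 0.0486), with sums of 29067 to 52862 and 34459 to 48849. Endothelial genes gave 1 lower of 7 (Kdr, -0.46, adjusted p = 0.00633), with sums of 12593 to 13473 in WT and 9126 to 12845 in mutants. Trophoblast and decidua genes were close to absent, with 3 of 6 at a count of 0 in every embryo and sums of at most 172.8, and of the 2 that were tested neither passed (Elf5 at 1.08, adjusted p = 0.0802, and Ascl2 at 1.36, adjusted p = 0.118). Of all genes tested, 17.6% were higher and 18.1% lower at an adjusted p below 0.05, and the counts in these short lists are to be read beside that. The part of the shares of these tissues in the levels of Dll1 and Tcf15 was not tested.

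**Figure D5:**
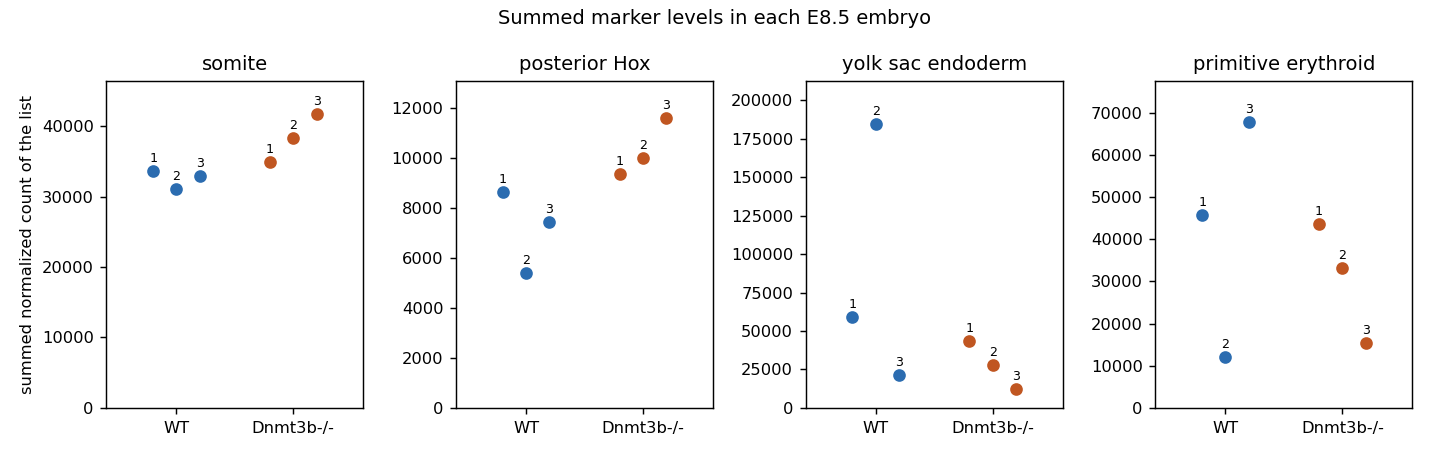
Summed normalized counts of 4 marker lists (vertical axes) in each WT (blue) and Dnmt3b-/- (orange) embryo, with the embryo number above each point. Somite and posterior Hox sums are higher in all mutants than in all WT embryos, while WT embryo 2 stands apart in yolk sac endoderm at 184540.

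Tcf15 shares its chromosome with the targeted gene, 1.50 Mb from Dnmt3b. Of the 57 tested genes within 2 Mb of Dnmt3b, 13 were higher and 13 lower at an adjusted p below 0.05, which is 22.8% in each direction beside 17.6% and 18.1% of all genes tested, and their median log2 fold change was -0.07. With a fold change above 2 required, 2 of the 57 were called higher, or 3.51%, beside 2.12% of all genes tested. These were Tcf15, for which the interval was chosen, and Cox4i2 (1.17 with a standard error of 0.24, adjusted p = 0.00634). Called lower were 3 of the 57, where 3.78% of all genes tested were called lower. Among these 3 were Slc52a3, which was at a count of 0 in all mutants, and Trib3 at -1.34 (adjusted p = 0.0302). Slc52a3 was at 30.0, 72.1 and 5.29 normalized counts in WT embryos 1, 2 and 3, a mean of 35.8 with an SD of 33.8. The limit of 3 counts averaged 3.29 normalized counts over the mutants. It lay 10.9-fold below the WT mean, or 5.36-fold without WT embryo 2. WT embryo 3 lay near that limit, so that neither fold is a firm lower bound. Slc52a3 passed the filter on counts through the WT embryos alone and had no fit without WT embryo 2. The interval also holds Pofut1 of the Notch list, 378382 bases from Dnmt3b, and Id1 of the cycling genes, 912001 bases from it. Whether the position near the deleted allele had a part in the levels of Tcf15, Pofut1 or Id1 was not tested.

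The genes whose pattern over the 6 embryos was most like that of Tcf15 were Klf3 and Prelid2, with root mean square differences of 0.09 and 0.11 between log2 levels each centred on its mean, where the SD of Tcf15 itself was 0.62. For the steady genes such likeness carries little, since 3714 genes lay within 0.2 of Dll3 and 2263 within 0.2 of Dll1, against 98 for Tcf15, 28 for Msgn1, 7 for Hes7 and none for Mesp1 or Uncx. The nearest genes were Mir3535 and Megf11 for Hes7, Pcsk6 and 1600020E01Rik for Lfng, Rpp14 and Pskh1 for Dll1, Zfand6 and Unc50 for Dll3, and Slc5a7 and Lrmp for Msgn1. For the rare genes they were Slc22a6 and Phyhd1 for Mesp1, Ppapdc3 and Kcnn4 for Mesp2, BC029722 and 9130019O22Rik for Ripply2, and Nudt18 and Adamtsl4 for Uncx. None of the 9 other genes of the group was among the 2 nearest of any of the 10.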

How the data were processed

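The authors aligned stranded, ribosomal RNA-depleted read pairs to mm10 with TopHat2 2.0.12 and deposited raw counts in RefSeq exons from HTSeq 0.6.0. A DESeq2 1.4.5 normalized signal, log2 fold changes and p-values, also deposited by the authors, were not used. Neither the RefSeq release nor how strand was handled in counting is given in the sources used here, so that overlapping genes could share reads.

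Counts of 15114 genes with a mean of at least 10 were scaled by TMM and tested in edgeR 4.0.16 (R 4.3.3) by its quasi-likelihood test, with p-values adjusted by Benjamini-Hochberg. A call needed an adjusted p below 0.05 together with a fold above 2. The standard error is the log2 fold change divided by the square root of F. FPKM, GC content and positions used the RefSeq annotation of GRCm38.p6, which matched 22608 genes by symbol and 1277 by an older symbol. On simulated counts edgeR recovered 84.8% of genes changed 2-fold and 100% of genes changed 4-fold among 15107 tested. Among the 10 genes the coefficient of variation between WT embryos ran from 2.41% for Dll3 to 58.6% for Mesp1. Recovery at the spread of each gene in these embryos was not tested. Alternatives used limma 3.58.1, DESeq2 1.42.0, other scalings and filters, a replicate block, a correction for GC content and length (natural splines with 5 degrees of freedom) and each embryo left out in turn. Figures used Python 3.11.15.

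The 10 genes and all lists were chosen with earlier results of these data known. Named genes are the 10, Dnmt3b, from each list up to 5 genes past the threshold with the largest change and the 2 most abundant, up to 5 within 2 Mb of Dnmt3b, and the 2 most alike for each of the 10. Genes named because only an alternative moved them past the threshold were chosen after their values were seen. Of the genes near Dnmt3b, 1 that the rule selects is not reported here. Groups and embryo numbers come from the labels, which tie no number to a litter, and p-values measure the spread between single embryos.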

Additional observations from a re-analysis of the deposited data

How the results depend on the processing

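Of 165 values of the 10 genes under the 17 alternatives, 152 kept their direction and their side of the threshold, including all 17 of Tcf15 (log2 fold change 0.75 to 1.66, adjusted p 8.70e-06 to 0.0219). Dll1 stayed below 0.05 in 12 of 17. With the correction for GC content and length, Lfng, Dll3 and Msgn1 turned to 0.17, 0.32 and 0.15, and together with the replicate block to 0.20, 0.31 and 0.14. Both corrected fits left 0 of the 10 genes lower and moved their median to 0.0013 and 0.022. They also moved the genes that passed to 5 and 3 lower in the Notch list (2 higher with the block), 3 and 2 higher among cycling genes and 1 lower in the tailbud list. Among all genes tested, 1923 were higher and 1879 lower after the correction, and 1394 and 1274 with the block, beside 2654 and 2741. Over all genes tested, calls above 2-fold were 274 higher and 177 lower after the correction (212 and 140 with the block), beside 320 and 571. Scaling by total counts gave 246 higher and 710 lower, with a median of -0.11 over all genes, and limma gave 177 and 280 with a pseudocount of 1, and 71 and 109 with 5, where Tcf15 was no longer above 2-fold and 0 of the 10 were called. Cycling genes that were lower numbered 2 with a mean of at least 50 counts, with total counts and with DESeq2. DESeq2 gave 2 cycling, 2 tailbud and 5 somite genes higher. The cause of these shifts was not tested.

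With 1 embryo left out, the number below an adjusted p of 0.05 was 1 higher in every fit and ranged from 0 to 2 lower for the 10 genes, and calls above 2-fold from 0 to 1 in each direction, where the 1 lower call was Mesp1 without mutant embryo 1 and the missing higher call Tcf15 without mutant embryo 3. The ranges were 1 to 4 higher and 4 to 9 lower for the Notch list, 0 to 1 and 0 to 2 for cycling genes, 1 to 2 and 2 to 5 for the tailbud list and 2 to 4 and 0 to 1 for somite genes, and the median of the 10 ranged from -0.53 to -0.26. Among all genes tested, the same fits gave 1795 to 2726 higher and 1791 to 2660 lower. Mesp1, Mesp2 and Ripply2 fell out at a mean of at least 50 counts, Mesp1 fell out without WT embryo 2, and DESeq2 gave Mesp1 no adjusted p.

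Embryos with the same number did not deviate together (correlations of -0.06, -0.15 and -0.01 for numbers 1, 2 and 3). With 3 embryos in each group, these correlations cannot decide whether the numbers pair embryos of a litter. A replicate block gave 1.11 for Tcf15 (adjusted p = 0.00886) and -0.39 for Dll1 (adjusted p = 0.0290), changed no other call among the 10 genes, and gave 265 higher and 516 lower calls over all genes tested. Depth limits Mesp1, Mesp2 and Ripply2 most, at counts of 0 to 46.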
